A study of Mus musculus with 2 samples.

Results

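The genes described are 46 genes of the mouse cell division cycle, chosen by name from a list and not by their values, out of 34745 genes with a value in the deposited files. They fall into 20 genes of the G1/S transition and DNA replication and 26 genes of G2, mitosis and cytokinesis. Each was read in 2 messenger RNA libraries of thioglycollate-elicited peritoneal macrophages from C57BL/6 mice. One library carries the genotype label Kdm2b-/- and the other the label wild type, and both were treated with lipopolysaccharide (LPS) at 100 ng/ml, for 4 h per the sample characteristics and 3 h per the treatment protocol. The macrophages were harvested 4 days after the thioglycollate injection. The age and sex of the mice, the number pooled per library and the design of the Kdm2b allele were not stated in the labels. With 1 library per label no difference could be tested, and every statement below describes these 2 libraries.

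A cell that divides passes from G1 into S phase, when its DNA is copied, and through G2 into mitosis. E2F transcription factors switch on the replication genes at the G1/S boundary, and cyclin E with Cdk2 starts the firing of replication origins that Cdc6, Cdt1 and the Mcm helicase have licensed. Genes of G2 and mitosis come on later, through B-Myb and FoxM1 on promoters that hold the cell cycle genes homology region (CHR) and CCAAT boxes. In resting cells repressor complexes built on retinoblastoma family proteins hold both waves down. Macrophages recruited to the peritoneum are largely out of cycle, but some divide in place, and bacterial products are known to arrest macrophages in G1. Kdm2b, a histone demethylase that brings a Polycomb complex to CpG islands, is known in fibroblasts for repressing cell cycle inhibitor genes.

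The library labelled knockout did not hold less Kdm2b messenger RNA. Kdm2b read 0.326 FPKM under the knockout label against 0.205 FPKM under the wild-type label, where FPKM is fragments per kilobase of gene, scaled to the library's total. These 2 values correspond to 164 and 105 fragments, a log2 ratio of 0.67 with a 95% counting interval of 0.31 to 1.04. A value per gene does not show a deleted exon, so directions refer to the label alone, and paired values below give the knockout label first. Sex-linked transcripts also differed: the Y-linked Ddx3y was at 5.72 FPKM under the knockout label and listed at 0 under the wild-type label, and Xist was at 0.00398 and 8.55 FPKM. Sex and genotype label therefore cannot be told apart. The FPKM values had been scaled to totals of 26806701 and 27272482.

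Cell cycle genes were, in most cases, modestly higher in the library labelled knockout. Of the 46, 39 had a higher FPKM value there and 7 a lower one. The 7 were Pcna, Ccne1, Gins2 and Tk1 of the G1/S group and Mki67, Cenpa and Ccnb1 of the G2/M group. Among the 12268 genes with a mean of at least 20 fragments, 8050 were higher there and 4206 lower. The median log2 ratio of all 46, taken from FPKM without a pseudocount, was 0.34, against 0.17 for the 12268 genes with a mean of at least 20 fragments. The middle of the list thus lay above the middle of the measured genes, which was itself above 0. The 2 highest ratios were those of E2f2, from 13 and 6 fragments, and Rrm2, and these were the only members past 2-fold. Among the 45 members with a mean of at least 20 fragments 1, Rrm2, was past it, beside 5.06% of all genes at that depth. No member was 2-fold lower, beside 2.16% of those genes.

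On the FPKM + 1 scale, which damps the ratios of low genes, 36 of the 46 reached the floor of a mean of 1 FPKM. Of these, 31 were above 0, which is 86.1%, while 63.2% of the 9023 genes past the floor were above 0. The median was 0.28 for the 36 and 0.10 for the 9023. None of the 36 was 2-fold higher and none 2-fold lower, where the shares over all genes were 0.864% and 1.02%. At 1.5-fold 7 were higher (Bub1b, Rrm2, Cdt1, Mcm7, Rrm1, Plk1 and Cdc20) and 0 were lower, beside 4.69% and 2.79% of all genes. Scaling the libraries to a median of 0 over all genes left 28 of 36 above 0 with a median of 0.18, and turned E2f1, Nusap1 and Tpx2 below 0. The members' difference is thus small in size and lies within 2-fold for nearly all.

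**Figure D1:**
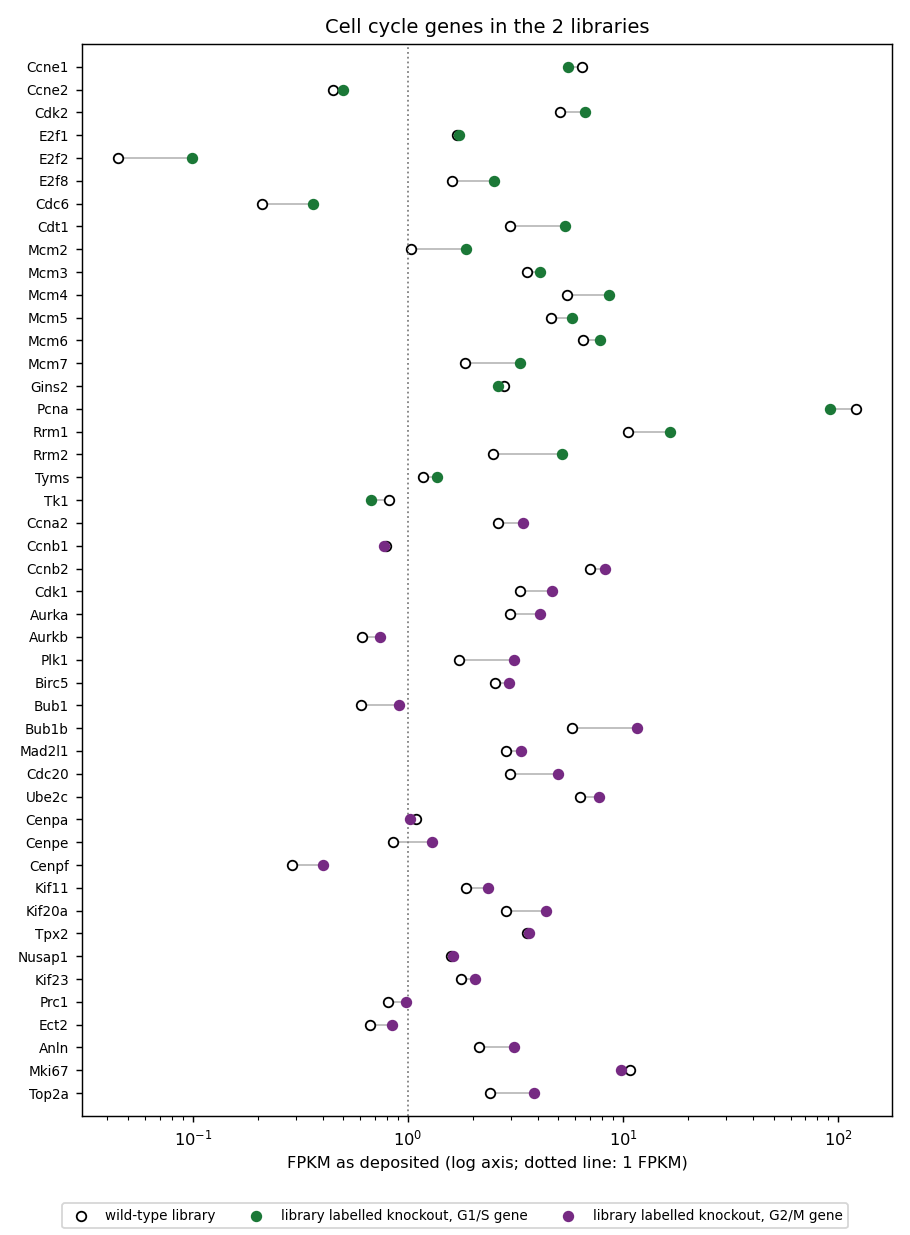
FPKM as deposited (log axis) of the 46 cell cycle genes, G1/S genes in green above and G2/M genes in purple below. Filled points are the library labelled knockout and open points the wild-type library. In 39 rows the filled point lies to the right of the open one, and Pcna, at 91.4 and 120 FPKM, stands far to the right of all others.

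The values allowed the fragments behind each gene to be recovered, because FPKM times the summed length of a gene's distinct exons fell on whole multiples of 1 step per library. For 33 of the 46 both values came out whole within 0.05 of a fragment. Pcna, Mki67, Rrm1, Cdt1, Mcm4, Cdk1 and Cdk2 were among those that did not, and their fragments are rounded values. The median member had 475 fragments in the library labelled knockout and 340 in the wild-type library, and the lowest count was the 6 of E2f2. An exact Clopper-Pearson 95% interval of each ratio was computed from these fragments, and it covers counting error only, not the spread between mice. The interval lay wholly above 0 for 31 of the 46, where this held for 46.7% of all genes with at least 20 fragments. It lay wholly below 0 for 3 (Pcna, Ccne1 and Mki67), beside 20.1% of all genes. For the other 12 the libraries could not be told apart at this depth. Set against the median of all genes in place of 0, 21 intervals lay above it and 6 below it, beside 30.3% and 32.7% of all genes. Among genes with a mean of 100 to 2000 fragments, 29 of 40 members had an interval above 0, and 51.5% of the 7435 genes in that range did.

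**Figure D2:**
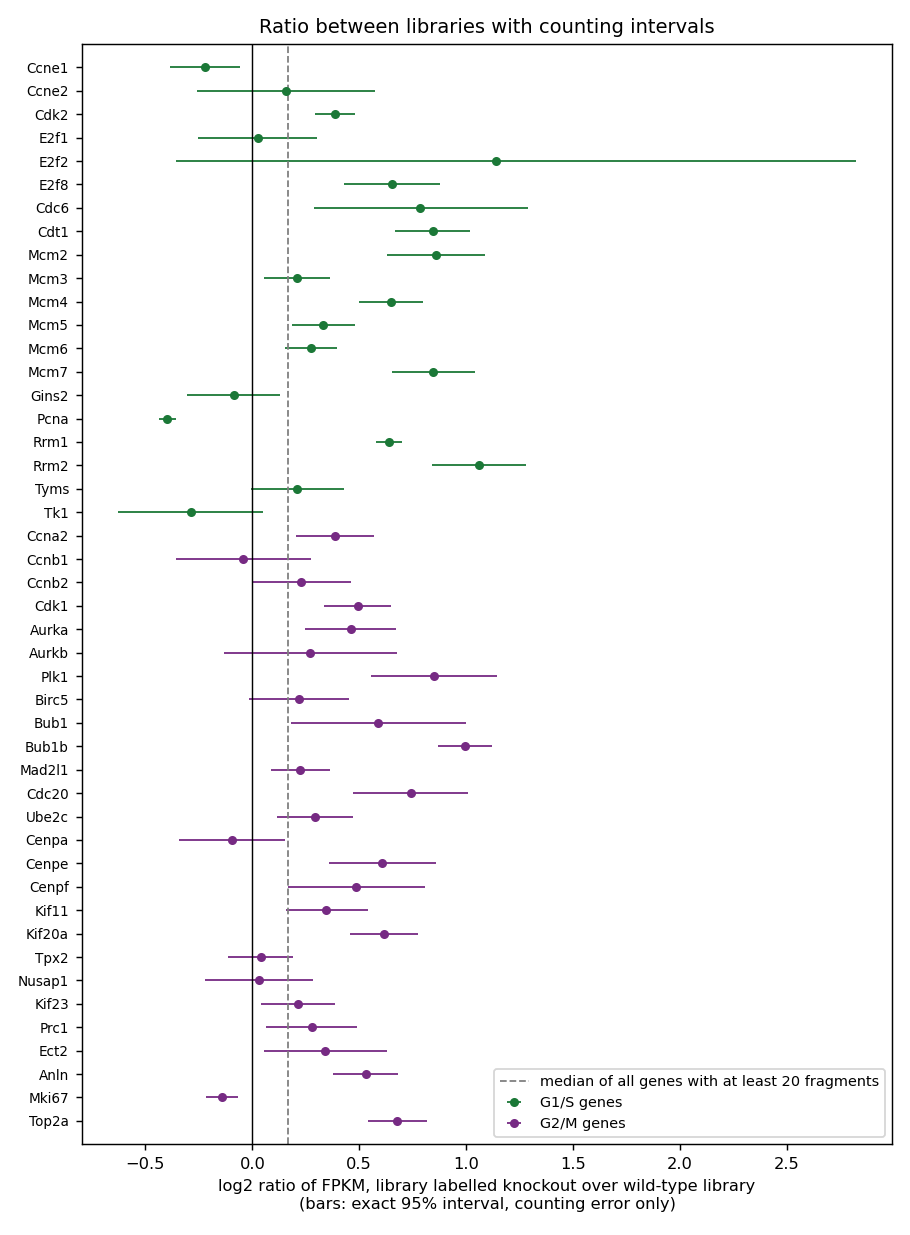
Log2 ratio of FPKM, library labelled knockout over wild-type library, for each of the 46 genes, with exact 95% counting intervals as bars. The dashed line is the all-gene median of 0.17. Most points lie to the right of 0 in both phase groups, and Pcna, Ccne1 and Mki67 are the genes whose bars end left of it.

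The listed genes of the G1/S group and of the G2/M group had nearly the same median difference between the libraries. Of the 20 G1/S genes, 16 were higher in the library labelled knockout, and of the 26 G2/M genes, 23 were. Of the 12268 genes with a mean of at least 20 fragments, 8050 were. The median log2 ratio without a pseudocount was 0.36 in the G1/S group and 0.34 in the G2/M group. On the FPKM + 1 scale the 16 and 20 genes past the floor had medians of 0.30 and 0.27, a difference of 0.030. That difference changed sign with the length and GC trend removed, at -0.023, and lay between -0.023 and 0.048 over all settings tried. No test of this difference was possible with 1 library per label. The near equality held for the listed members only. In wider lists, described further below, 34 other replication genes had a median of 0.077 on the FPKM + 1 scale. The 31 other mitotic genes past the floor had one of 0.28.

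The groups differed more in how their fragments added up, because 1 gene weighed heavily in each. Summed over the 20 G1/S genes there were 24583 and 23212 fragments, a log2 ratio of 0.11. Over the 26 G2/M genes there were 15446 and 12626, a log2 ratio of 0.32. Pcna alone held 35.0% of the G1/S fragments in the library labelled knockout and 49.7% in the wild-type library, and Mki67 held 17.5% and 24.1% of the G2/M fragments. Without Pcna the G1/S sum had a log2 ratio of 0.48 (counting interval 0.44 to 0.51), and without Mki67 the G2/M sum had one of 0.43 (0.40 to 0.47). Both were left out after their values were seen. Each was lower in the library labelled knockout, so the ratio of its group could only rise without it. The intervals cover the counting error of the sums only, not the spread between genes.

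**Figure D3:**
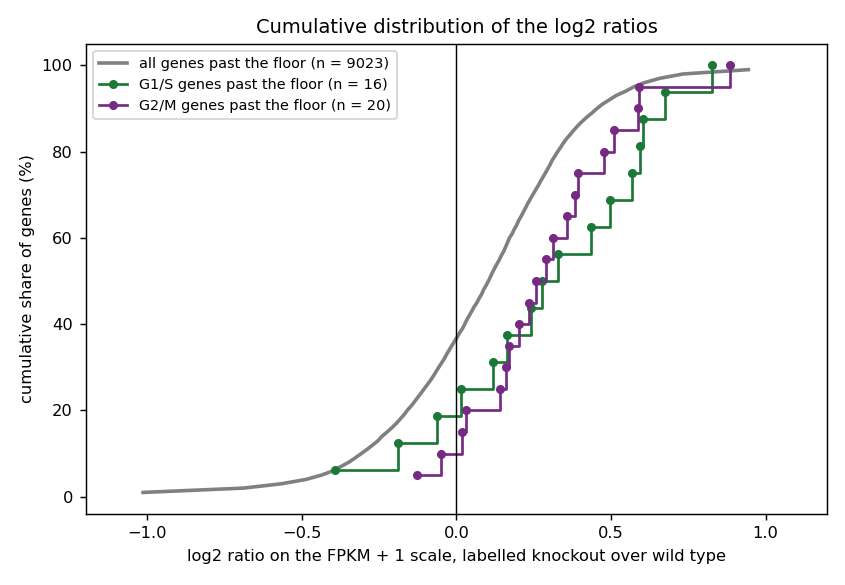
Cumulative share of genes against the log2 ratio on the FPKM + 1 scale, for all 9023 genes past the floor (grey), the 16 G1/S genes (green) and the 20 G2/M genes (purple). Both coloured curves run to the right of the grey one over most of the range, with medians of 0.30, 0.27 and 0.10, and they cross each other.

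The 2 groups differed in the short sequences of their promoters, which were read from RefSeq windows (GRCm38.p6) of 250 bases before to 50 bases after each start. A window was found for 39 of the 46; Ccne2, Mcm4, Gins2, Ccna2, Aurkb, Kif20a and Tpx2 had none in the table used. Both strands were searched. An E2F motif was searched as TTCCCGC and in the form TTCGCGC, likewise in the form TTGCCGC and lastly as TTGGCGC. It occurred in 11 of 17 G1/S genes and in 4 of 22 G2/M genes. It was present in 19.2% of 6994 genes past the floor and in 10.9% of all 27025 genes with a window. The CHR motif TTTGAA occurred in 3 of 17 G1/S genes and 16 of 22 G2/M genes, beside 13.8% and 20.2% of genes. The sequence CCAAT, bound by the factor NF-Y, occurred in 11 of 17 and 18 of 22, beside 42.3% and 41.1%; it can overlap an E2F motif. CHR and CCAAT stood together in 15 of 22 G2/M genes and in 6.69% of genes past the floor. A match is a description of letters and does not show that a factor was bound.

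The windows below are examples of where these motifs lie, from the 2 members of each group with the highest ratios among those that held the group's motif in the 250 bases before the start. E2f2 was left out for its few fragments, and Bub1b and Plk1 because their CHR match lay after the start. Chosen for the motif, they do not bear on how often it occurs. Capitals mark the E2F motif and CCAAT in the G1/S genes Rrm2 and Mcm7, and the CHR motif and CCAAT in the G2/M genes Cdc20 and Top2a, on either strand (GRCm38.p6, 5′ to 3′ along the gene).
Rrm2, chr12:24708004-24708253, + strand: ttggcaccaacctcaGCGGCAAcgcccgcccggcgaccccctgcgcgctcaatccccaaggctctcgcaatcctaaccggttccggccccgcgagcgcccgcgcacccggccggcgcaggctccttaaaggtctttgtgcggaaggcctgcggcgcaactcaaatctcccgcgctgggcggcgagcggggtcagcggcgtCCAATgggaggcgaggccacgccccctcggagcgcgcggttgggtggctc
Mcm7, chr5:138171884-138172133, - strand: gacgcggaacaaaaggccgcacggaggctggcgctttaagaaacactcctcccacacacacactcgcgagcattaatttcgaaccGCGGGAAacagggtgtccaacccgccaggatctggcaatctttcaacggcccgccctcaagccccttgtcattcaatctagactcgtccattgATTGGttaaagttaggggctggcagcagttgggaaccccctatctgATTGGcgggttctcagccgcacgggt
Cdc20, chr4:118437344-118437593, - strand: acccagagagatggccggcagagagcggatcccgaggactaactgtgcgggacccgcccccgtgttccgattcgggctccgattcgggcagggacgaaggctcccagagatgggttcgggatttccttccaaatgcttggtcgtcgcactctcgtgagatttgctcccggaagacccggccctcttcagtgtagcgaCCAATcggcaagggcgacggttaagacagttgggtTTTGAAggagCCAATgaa
Top2a, chr11:99024190-99024439, - strand: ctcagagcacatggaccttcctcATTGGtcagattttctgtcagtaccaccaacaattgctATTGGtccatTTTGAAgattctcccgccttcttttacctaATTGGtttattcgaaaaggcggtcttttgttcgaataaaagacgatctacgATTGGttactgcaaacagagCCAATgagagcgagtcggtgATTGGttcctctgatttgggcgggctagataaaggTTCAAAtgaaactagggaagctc
In Cdc20 the CHR motif lay 18 to 13 bases before the start, and in Top2a 1 copy lay 23 to 18 bases before it. In Rrm2 the E2F motif lay 235 to 229 bases before the start. Cdk1, and also Cenpf, held CGG and TTTGAA parted by 4 bases, a cell cycle dependent element next to the CHR that is known from mitotic promoters, and 0.178% of all genes held it. In Cdk1 the capitals mark its 2 parts.
Cdk1, chr10:69352913-69352942, - strand: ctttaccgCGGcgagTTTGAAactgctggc
Among the 39 genes, the 10 with an E2F motif only had a median log2 ratio of 0.51, the 14 with a CHR motif only one of 0.47, the 5 with both 0.49 and the 10 with neither 0.12. Of the 10 with neither motif, 7 were higher in the library labelled knockout, up to Cenpe at 0.61, while Pcna, Ccne1 and Tk1 were lower. Of the other members that were lower, Mki67 held both motifs, Cenpa a CHR motif and Ccnb1 an E2F motif, and Gins2 had no window. The medians by motif were not computed over all genes, and a link between motif and ratio was not tested.

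Among the G1/S genes, most of those that license origins and unwind DNA were higher. Of these 9, 8 had a counting interval above 0, beside 46.7% of all genes, and their median log2 ratio was 0.65. Against the all-gene median of 0.17, 6 intervals lay above and 1 below. Cdt1, which loads the helicase onto origins, stood at 5.35 and 2.98 FPKM, a log2 ratio of 0.84 (counting interval 0.67 to 1.02). It overlaps the gene model Gm20388 on the same strand and is uncertain for that reason. Cdc6, which works with Cdt1, stood at 0.361 and 0.210 FPKM (93 and 55 fragments), a log2 ratio of 0.78 (0.29 to 1.29). Both loading factors were thus higher by about the same ratio, at very different levels.

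The 6 subunits of the Mcm2-7 helicase ring work in equal numbers, but their ratios were not equal. Mcm2 stood at 1.86 and 1.03 FPKM, a log2 ratio of 0.86 (0.63 to 1.09), and Mcm7 at 3.32 and 1.84 FPKM, one of 0.85 (0.65 to 1.04). Mcm4 followed at 8.60 and 5.48 FPKM, with a log2 ratio of 0.65 (0.50 to 0.80). Mcm5 (5.81 and 4.62 FPKM), Mcm6 (7.84 and 6.49 FPKM) and Mcm3 (4.11 and 3.56 FPKM) were higher by less, with log2 ratios of 0.33, 0.27 and 0.21. The counting intervals of Mcm2, Mcm4 and Mcm7 did not overlap those of Mcm3, Mcm5 and Mcm6, the highest of which ended at 0.48. Mcm7 overlaps genes on both strands, among them 3 microRNA genes on its own strand, and is uncertain. Gins2, a subunit of the GINS complex that joins the ring at the fork, did not share the difference, at 2.62 and 2.78 FPKM (interval -0.30 to 0.13).

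Genes of nucleotide supply and the replication clamp split in both directions. Rrm2 (ENSMUSG00000020649, chr12:24708241-24714146, GENCODE M21 on GRCm38), the regulated subunit of ribonucleotide reductase, stood at 5.18 and 2.48 FPKM, or 516 and 252 fragments. Its log2 ratio of 1.06 (0.84 to 1.28) was the highest among members with at least 20 fragments. Rrm1, the other subunit of the enzyme, stood at 16.5 and 10.6 FPKM with a log2 ratio of 0.64 (0.58 to 0.70). Tyms, thymidylate synthase, stood at 1.36 and 1.18 FPKM and Tk1, thymidine kinase, at 0.672 and 0.819 FPKM, and both intervals held 0. The reductase genes were thus higher while the thymidine genes could not be told apart at this depth.

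Pcna (ENSMUSG00000027342, chr2:132249162-132253314), the sliding clamp of DNA polymerase that also serves DNA repair, was the most abundant member and was lower in the library labelled knockout. It stood at 91.4 and 120 FPKM, from 8602 and 11526 fragments, a log2 ratio of -0.40 (-0.44 to -0.36). It remained below 0 under every scaling tried. With the length and GC trend removed its value on the FPKM + 1 scale was -0.18 in place of -0.39. The annotation holds 2 Pcna pseudogenes, so its reads can be shared and the value is uncertain.

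Cyclin E and E2F genes showed no common direction. Ccne1, cyclin E1, was lower at 5.54 and 6.46 FPKM, a log2 ratio of -0.22 (-0.39 to -0.06), while Ccne2 stood at 0.498 and 0.448 FPKM with an interval that held 0. Cdk2, their kinase, was higher at 6.67 and 5.11 FPKM, a log2 ratio of 0.38 (0.29 to 0.48), and overlaps the gene Pmel on the other strand. E2f1, an activating factor, had 216 fragments in each library, at 1.72 and 1.69 FPKM. E2f8, an atypical E2F that represses, was higher at 2.51 and 1.59 FPKM, a log2 ratio of 0.65 (0.43 to 0.88). E2f2, at 0.0991 and 0.0450 FPKM, had too few fragments for a direction (interval -0.36 to 2.82).

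Among the G2/M genes, the group of the spindle checkpoint with Cdc20 and Ube2c, which work with the anaphase-promoting complex, had the highest median. All 5 had a counting interval above 0, beside 46.7% of all genes, and their median log2 ratio was 0.59. The interval of 3 of the 5 lay above the all-gene median. Bub1b (ENSMUSG00000040084, chr2:118598211-118641591), the gene of the checkpoint protein BubR1, stood at 11.6 and 5.81 FPKM, from 1501 and 766 fragments, a log2 ratio of 0.995 (0.87 to 1.12). Cdc20, the activator that the checkpoint restrains, stood at 4.98 and 2.98 FPKM with a log2 ratio of 0.74 (0.47 to 1.01). Bub1, a checkpoint kinase, stood at 0.910 and 0.606 FPKM with one of 0.59 (0.18 to 0.999). The ubiquitin-conjugating enzyme gene Ube2c (7.73 and 6.31 FPKM, 0.29) and the checkpoint gene Mad2l1 (3.35 and 2.86 FPKM, 0.23) were higher by less. The interval of Bub1b did not overlap that of Ube2c or Mad2l1. The checkpoint genes Bub1b and Mad2l1 thus differed unequally, while the interval of Bub1 overlapped both of theirs.

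The mitotic kinases and cyclins were higher or could not be told apart. Plk1, the Polo-like kinase, stood at 3.10 and 1.72 FPKM, a log2 ratio of 0.85 (0.56 to 1.14), and Aurka, Aurora A, at 4.11 and 2.99 FPKM, one of 0.46 (0.25 to 0.67). Aurkb, Aurora B, stood at 0.738 and 0.612 FPKM and Birc5, survivin, its partner in the chromosomal passenger complex, at 2.93 and 2.52 FPKM, and both intervals held 0. Cdk1, the kinase that drives mitosis, stood at 4.65 and 3.30 FPKM, a log2 ratio of 0.49 (0.34 to 0.65). Its partner cyclins ran from Ccna2, at 3.44 and 2.63 FPKM (0.39), through Ccnb2, at 8.23 and 7.02 FPKM (0.23), to Ccnb1, at 0.770 and 0.793 FPKM. The last had 166 and 174 fragments and an interval of -0.36 to 0.27. Ccnb1 and Ccnb2 each have an annotated pseudogene, so their reads can be shared.

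Genes of the kinetochore, the spindle and cytokinesis did not share a common difference: 8 of the 11 had a counting interval above 0 and 3 had one that held 0. Cenpe, a kinetochore motor, had 328 and 219 fragments, a log2 ratio of 0.61 (0.36 to 0.86), and Cenpf at 0.404 and 0.289 FPKM, one of 0.49 (0.16 to 0.81). Cenpa, the histone variant of the centromere, was not, at 1.02 and 1.09 FPKM (-0.34 to 0.15). Of the spindle genes, the kinesin genes Kif20a (4.36 and 2.85 FPKM, 0.61) and Kif11 (2.36 and 1.86 FPKM, 0.35) were higher. Tpx2 (3.66 and 3.56 FPKM) and Nusap1 (1.62 and 1.59 FPKM), which bind spindle microtubules, each had a log2 ratio between the libraries under 0.04. All 4 cytokinesis genes had an interval above 0, beside 46.7% of all genes, but that of only 1, Anln, lay above the all-gene median. They were Anln, anillin (3.10 and 2.14 FPKM, 0.53), the furrow regulator gene Ect2 (0.838 and 0.662 FPKM, 0.34), the midzone protein gene Prc1 (0.982 and 0.810 FPKM, 0.28) and Kif23 (2.05 and 1.77 FPKM, 0.21).

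Top2a and Mki67, 2 genes often read as marks of dividing cells, went opposite ways. Top2a, the topoisomerase that untangles chromosomes, stood at 3.86 and 2.41 FPKM, from 1110 and 706 fragments, a log2 ratio of 0.68 (0.54 to 0.82). Mki67 (ENSMUSG00000031004, chr7:135689784-135716361), which encodes the Ki-67 antigen, stood at 9.77 and 10.8 FPKM, from 2709 and 3038 fragments, one of -0.14 (-0.22 to -0.07). Mki67 stayed below 0 under every scaling tried, and Top2a above 0. With the length and GC trend removed, Mki67 was at -0.31 in place of -0.13 on the FPKM + 1 scale. Top2a was at 0.47 in place of 0.51. A reading from either gene alone would thus give a different sign.

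Levels can be compared between genes only per length, and the deposited FPKM used a length that grows with the number of annotated exons. For the members that length was a median of 1.80 times the longest transcript and up to 4.21 times (Prc1). Recomputed on the same totals per kilobase of the longest transcript, the order was led by Pcna (211 and 278 length-corrected units), Rrm1 (37.8 and 24.3) and Cdk2 (24.4 and 18.7) in both libraries. Bub1b ranked 4 in the library labelled knockout (15.3) and 8 in the wild-type library (7.66). E2f2 ranked last in both, at 0.102 and 0.0464. The median of the G1/S genes was 7.81 and 4.22 and that of the G2/M genes 5.34 and 3.88. These medians lay between percentiles 56.2 and 66.1 of all genes with a fragment, so transcripts of both phases were present at moderate levels in both libraries. In bulk RNA, more cells in cycle and more transcript per cell cannot be told apart. On the deposited scale 10 members were under the floor of 1 FPKM, 9 of which had at least 20 fragments. Per kilobase of the longest transcript, E2f2, Cdc6 (0.722 and 0.420) and Cenpf (0.650 and 0.465) were still under 1 in both libraries.

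Further genes of the cycle were read from 4 lists drawn up by function, with earlier results of these data known. Of 58 other mitotic genes, 31 reached the floor. Of these, 28 were above 0 on the FPKM + 1 scale, beside 63.2% of all genes past the floor. Their median was 0.28. The highest were Hjurp, the chaperone of Cenpa (2.97 and 1.72 FPKM), Incenp of the passenger complex (4.84 and 3.02 FPKM), the condensin gene Smc4 (5.38 and 3.64 FPKM) and Ckap2l (2.97 and 1.93 FPKM). The 3 below 0 were Pttg1, securin (10.1 and 12.5 FPKM), Anapc11 (8.22 and 9.12 FPKM) and Cdca3 (2.62 and 2.64 FPKM). The median of the other mitotic genes was close to that of the G2/M members.

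The other replication genes did not share the median of the G1/S members. Of 48, 34 reached the floor, 21 above 0 and 13 below, beside 63.2% of all genes above 0. Their median was 0.077, under the 0.10 of all genes and the 0.28 of the other mitotic genes. Dnmt1, the maintenance DNA methyltransferase (4.99 and 3.01 FPKM), Chaf1a of the chromatin assembly factor (2.19 and 1.19 FPKM) and Gins1 (2.69 and 1.76 FPKM) were among the highest. Fen1, the flap endonuclease (0.958 and 2.15 FPKM), Tipin (817 and 1089 fragments) and the clamp loader genes Rfc3 (3.01 and 3.97 FPKM) and Rfc4 (2.34 and 3.00 FPKM) were the lowest. The 10 of 12 genes of the D-type cyclin and retinoblastoma list past the floor had a median of 0.011, 5 above 0 and 5 below, from Ccnd3 (656 and 267 fragments) to Ccnd2 (9.99 and 11.5 FPKM). Of 13 of 19 genes of transcriptional control past the floor, 10 were above 0, beside the same 63.2%, with a median of 0.14. Among them Myc stood at 1.64 and 0.687 FPKM, Tfdp1, the E2F partner, at 25.7 and 18.4 FPKM, and Lin37 of the repressor complex at 2.37 and 3.88 FPKM. In none of the 4 lists was a gene 2-fold higher or lower on this scale, beside 0.864% and 1.02% of all genes past the floor. Without the pseudocount, Ccnd3 (log2 ratio 1.32) and Myc (1.26) were past 2-fold higher, and Fen1 (-1.16) past 2-fold lower, among the genes named here.

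The ratio between the libraries rose with transcript length over all genes, and the members' median length was somewhat above that of all genes. The all-gene median on the FPKM + 1 scale ran from -0.23 in the shortest of 10 length bins to 0.29 in the longest. The members past the floor had a median longest transcript of 3510 bases and the 9023 genes one of 3093. With the trend in length and GC content removed, the median of the members was 0.27, that of the G1/S genes 0.26 and that of the G2/M genes 0.28, and 29 of 36 were above 0 in place of 31. Over all genes the number above 0 went the other way, from 5706 to 6172 of 9023. E2f1 and Tpx2 turned below 0 there. The all-gene median was kept at 0.10 in this step, and the members' median stayed above it. Of the 46 genes, 22 overlap another annotated gene on either strand, 8 of them on the same strand (such as Rrm1 and Anln), and the labels describe no strand-specific counting, so the reads of such pairs can be shared. The 19 members past the floor without such overlap had a median of 0.20, with 16 above 0.

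**Figure D4:**
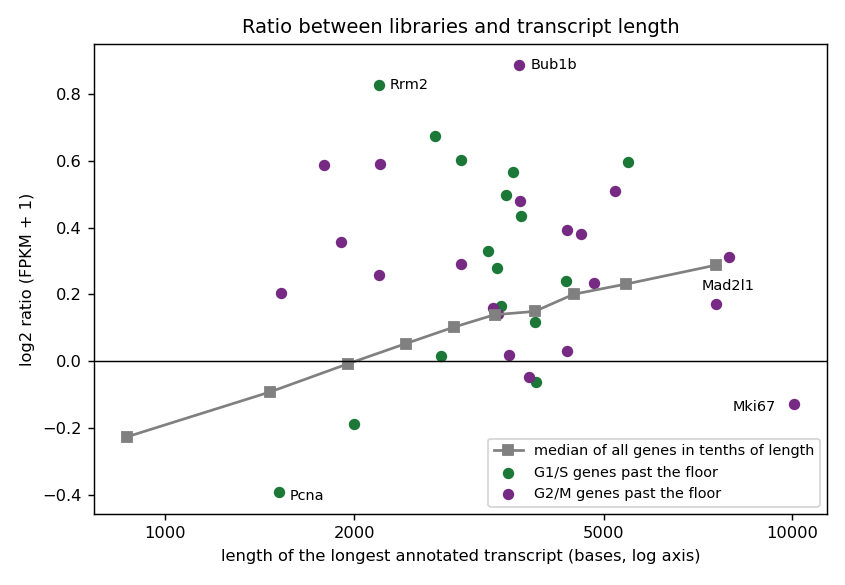
Log2 ratio on the FPKM + 1 scale against the length of the longest transcript (log axis) for the members past the floor, G1/S in green and G2/M in purple. Grey squares are the medians of all genes in 10 length bins, from -0.23 to 0.29. Most members lie above the grey line, and Pcna and Mki67 lie below it at opposite ends of the length axis.

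Markers of other cell types also moved between the libraries. All 8 fibroblast markers passed the floor, and 5 were 2-fold higher in the library labelled knockout, with summed levels of 539 and 386 FPKM and the largest ratio in Col1a1, at 16.0 and 3.63 FPKM. Dcn, the largest part of that sum, stood at 250.8 and 248.1 FPKM, and Lum was lower, at 9.46 and 12.4 FPKM. The 8 mesothelial markers were summed at 107 and 106 FPKM, but 3 had a counting interval above 0 (Lrrn4, Upk3b and Wt1) and 5 one below 0. Of 8 B cell markers 2 passed the floor, and the list was summed at 2.87 and 27.4 FPKM. The T and NK cell list was summed at 2.79 and 6.77 FPKM with 5 of 8 markers at 0 in both libraries, and the neutrophil list at 0.513 and 0.290 FPKM with Ly6g and Mpo at 0 in both. The eosinophil and mast cell list was summed at 0.986 and 2.24 FPKM, the dendritic cell list at 1.49 and 2.12 FPKM, and the erythroid and platelet list at 17.8 and 41.0 FPKM. Of 10 macrophage markers 9 passed the floor, with sums of 14276 and 11993 FPKM, so markers of the labelled cell type were present in both. Most of that sum was Lyz2, at 11409 and 8945 FPKM. Of the 9, 5 were above 0 and 4 below, with a median of 0.026, and Cd14 was lower, at 905 and 1136 FPKM. The part of fibroblasts and B cells, and of the sex-linked difference, in the ratios of the cell cycle genes was not tested.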

How the data were processed

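The authors deposited 1 FPKM value per Ensembl gene and library, per the file headers. Tools listed in the submitters' processing notes are HISAT2 2.0.4, StringTie 1.3.0, edgeR and the builds GRCm38.p4 and mm10; the sources used here do not give their roles, the annotation release or filters. Symbols and lengths came from GENCODE M21 (GRCm38), which matched 34344 of 34745 IDs; values of 24 symbols with several IDs were summed.

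Fragments per gene were recovered as FPKM times the summed length of distinct exons, overlaps counted repeatedly, divided by 1 step per library. For genes with several transcripts and under 100 fragments, 73.7% and 74.3% of products lay within 0.02 of a whole number, against 7.39% and 7.32% with the longest transcript; 4% would by chance. Such a length lowers the FPKM of genes with many annotated exons. Even counts made up 49.99% and 50.2%, so mates were not counted separately. The recovered fragments of genes with a mean of at least 20 sum to 36658913 and 37380901, more than the scaling totals of 26806701 and 27272482, so what those totals count is not settled. The intervals use the fragments and the ratio of the totals only, and PCR copies are not independent molecules.

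Log2 ratios were computed from FPKM + 1 where the mean reached 1 FPKM, with 2-fold as the rule of size, and from FPKM alone beside the intervals. With 1 library per group there was no test across samples and no p-value. The rule for named genes took Kdm2b, all members, and up to 4 genes in either direction per further list; some are not reported here. The members, lists and settings were chosen with earlier results of these data known. Trend removal used medians in 20 bins each of length and GC content. The fragment ratio and the removal of overlapping genes were chosen after seeing the data. Simulated data were used to test the calculations. Python 3.11.15, NumPy, pandas and SciPy were used.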

Additional observations from a re-analysis of the deposited data

How the results depend on the processing

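The median log2 ratios of the members and of both phase groups stayed above 0 in every setting run. With a pseudocount of 5 FPKM they shrank to 0.16 for the members and 0.14 for the G2/M genes. The number of members at least 2-fold higher was 0 as reported, 1 (Rrm2) with a pseudocount of 0.1 FPKM, 1 (Rrm2) with fragment ratios at 20 fragments or more, and 7 at a threshold of 1.5-fold; no member was 2-fold lower in any of these. Over all genes, 78 were at least 2-fold higher and 92 lower. The higher genes numbered 173 with a pseudocount of 0.1 and 14 with one of 5, 44 after scaling to a median of 0 (with 113 lower), 35 at a floor of 5 FPKM, 621 with fragment ratios, 423 at 1.5-fold and 5 at 4-fold. The lower genes numbered 33 with a pseudocount of 5, 48 at a floor of 5 FPKM, 265 with fragment ratios, 252 at 1.5-fold and 18 at 4-fold. Equal FPKM totals gave 95 higher and 76 lower. The cause of these shifts was not tested, apart from fewer or more genes passing a changed floor or threshold. No member whose counting interval excluded 0 changed sign under any setting. No paired analysis was possible because each label has 1 library. Depth limits the direction of E2f2, and of the 12 members whose interval holds 0.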
